A study of Mus musculus with 12 samples.

Results

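The guanylate-binding proteins and the immunity-related GTPases are families of enzymes that bind and split GTP and that cells make in large amounts when interferon gamma reaches them. Here 10 of their genes, Gbp2, Gbp3, Gbp5, Gbp6, Gbp7, Gbp9, Irgm1, Irgm2, Igtp and Iigp1, were taken by symbol from a count table of 55291 genes. All 10 passed the filter on low counts and were among the 19010 genes tested. The cells were activated CD8+ T cells from lymph node and spleen of mice, the killer T cells of the immune system, either wild type (WT) or carrying a Dock8 knockout (KO). DOCK8 is a protein that activates the small GTPase CDC42 and so acts on the actin skeleton of migrating lymphocytes. Every culture was activated and expanded for 3 days and then spent 24 h either in liquid media or inside a gel of bovine collagen (Nutragen, 2 mg/mL), where the labels describe the cells as migrating. That gave 4 groups of 3 libraries, WT media, WT gel, KO media and KO gel, with 3 mice per group stated. The age of the mice and the kind of Dock8 allele were not given in the sources used here. Whether libraries that share a number in media and in gel came from 1 mouse was not stated.

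As background, interferon gamma binds its receptor IFNGR1 and IFNGR2, whose kinases JAK1 and JAK2 start the response in the nucleus. DNA elements called GAS and ISRE in the promoters of target genes carry it, and IRF1 is a transcription factor that binds the ISRE. The GTPases made in response act on membranes around intracellular microbes: members of the Irgm group, which includes Igtp, are regulators that keep the effector GTPases off the cell's own membranes, Iigp1 is an effector, and the guanylate-binding proteins assemble as coats on the target membrane. Activated CD8+ T cells secrete interferon gamma and also carry its receptor.

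The promoters are shown first because these genes are grouped by their response to interferon, and the element that interferon-activated factors bind can be read in them. Of the 10 genes, 7 had a promoter in the RefSeq table (GRCm38.p6), a window from 250 bases before to 50 bases after a start site. All 7 held at least 1 ISRE, searched as GAAANNGAAA on both strands (TTTCNNTTTC on the other), and 4 of 7 held a GAS, searched as TTCNNNGAA, which reads the same on both strands. Over all 32851 RefSeq promoters of that length, 3.44% held the ISRE letters, 8.30% the GAS letters and 0.454% both. The stretches below run 5′ to 3′ along the gene's own strand with the ISRE letters in capitals and 25 bases on each side.
Gbp5, chr3:142496744-142496803, plus strand: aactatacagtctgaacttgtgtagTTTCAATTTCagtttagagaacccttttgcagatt
Gbp7, chr3:142530258-142530317, plus strand: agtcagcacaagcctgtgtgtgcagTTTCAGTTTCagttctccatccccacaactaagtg
Gbp3, chr3:142559974-142560039, plus strand: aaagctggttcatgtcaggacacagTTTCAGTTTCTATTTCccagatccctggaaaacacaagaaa
Gbp2, chr3:142620579-142620638, plus strand: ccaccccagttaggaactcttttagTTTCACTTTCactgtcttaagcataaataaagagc
Irgm1, chr11:48871410-48871475, minus strand: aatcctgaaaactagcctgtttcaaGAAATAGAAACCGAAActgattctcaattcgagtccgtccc
Igtp, chr11:58199497-58199556, plus strand: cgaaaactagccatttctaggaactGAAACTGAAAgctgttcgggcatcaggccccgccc
Irgm2, chr11:58214888-58214947, plus strand: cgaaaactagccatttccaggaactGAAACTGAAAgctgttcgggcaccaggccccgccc

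In the 4 guanylate-binding protein promoters the ISRE letters lay on the strand opposite to the gene, and in Irgm1, Igtp and Irgm2 they lay on the gene's strand. Counted from the RefSeq start site, the match began at -59 in Gbp2, -53 in Gbp7, -45 in Gbp3, -64 in Irgm2, -34 in Igtp and -30 in Irgm1, and farther away, at -165, in Gbp5. By the GENCODE M21 gene spans given below, the shown stretches of Gbp5, Irgm1 and Irgm2 lie inside the gene. That of Gbp2 spans the gene's first base. Gbp3 and Irgm1 each held 2 matches that overlap, and a second Gbp3 start site in the table had none in its window. The GAS letters were found in Gbp5, Gbp7, Igtp and Irgm2. The promoters of Igtp and Irgm2 were 93.6% identical (247 of 264 aligned bases), and their gene models overlap on 1 strand. A match of letters is a description of the window and was not tested as a binding site.

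The genes lie in clusters. In GENCODE M21 (GRCm38), Gbp5 (chr3:142493978-142522344), Gbp7 (chr3:142530342-142550149), Gbp3 (chr3:142560026-142573209) and Gbp2 (chr3:142620602-142638008) follow each other on the plus strand of chromosome 3. Gbp9 (chr5:105077630-105139539) and Gbp6 (chr5:105270702-105293698) lie on the minus strand of chromosome 5. Irgm1 (chr11:48861968-48871683, minus strand) is apart from Igtp (chr11:58199556-58207591) and Irgm2 (chr11:58199618-58222782) on chromosome 11. Shared sequence makes some counts uncertain, since the handling of reads that match several genes was not given in the sources used here. Of the 75-base windows of Gbp6 transcripts, 67.3% also occur in another gene, mainly Gm43302, which overlaps it, and to a lesser extent Gbp10 and Gbp11. That share was 11.3% for Gbp7 (Gm43802), 7.80% for Igtp and 4.78% for Irgm2 (each mainly with the other), 3.61% for Gbp9, 2.06% for Gbp3 and under that for Gbp2 (0.955%) and Gbp5 (0.578%). No such window of Irgm1 or Iigp1 occurred in another gene.

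The libraries held 28483064 to 61390702 counts, and the 10 genes had between 585 and 16777 counts each per library. Levels are given as CPM, a gene's counts scaled to a library total of 1000000. The Dock8 label check gave 362 to 450 CPM of Dock8 in the 6 WT libraries and 109 to 168 in the 6 KO libraries. Cd8a, Cd8b1 and 6 other T cell markers summed to 2969 to 3563 CPM. Among markers of other cells, S100a8 and S100a9 (neutrophils) were at 0 in both WT groups and in KO gel, and Siglech (plasmacytoid dendritic cells) was at 0 in 3 of the 4 groups. The KO gel libraries stood apart in breadth: at a common depth of 28483064 counts they held 28362 to 30104 detected genes against 24336 to 25142 in the others. Their mitochondrial share was 2.27% to 2.61% against 1.34% to 2.31%, and KO media replicate 2, at 2.31%, lay within their range. Counts of ribosomal RNA-like genes made up 12.8% of WT gel replicate 2 and 8.70% of KO media replicate 3, against 3.29% to 7.37% elsewhere.

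All 10 GTPase genes were expressed in every library. To compare genes roughly, levels were scaled by the length of all annotated exons of a gene, which can exceed that of the transcripts in use. On this scale Igtp had the highest level in WT media at 135.7 ± 36.1 CPM per kb (SD, n = 3), followed by Gbp2 at 64.4 ± 14.4. Irgm2 (27.6 ± 7.37) and Irgm1 (23.9 ± 4.69) came next with overlapping libraries. Gbp3 (18.2 ± 1.27), Iigp1 (15.7 ± 6.99), Gbp7 (15.1 ± 1.72) and Gbp9 (12.9 ± 2.97) formed a run in which each gene's libraries overlapped those of the next. Gbp6 (7.28 ± 2.23) and Gbp5 (4.34 ± 0.54) were lowest and overlapped neither each other nor the genes above. The place of Gbp6 is uncertain because many of its reads can match other genes. Igtp, a regulator, was thus higher per kb than Iigp1, an effector, in each WT media library.

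The summed level of the 10 genes was lowest in WT gel. The 3 WT libraries kept in media summed to 894, 924 and 1335 CPM and those from the gel to 739, 783 and 676. For KO cells the sums were 864, 881 and 983 CPM without the gel and 1123, 1020.0 and 1131 with it. Every KO gel library exceeded every WT gel and every KO media library in this sum, and every WT gel library was below every library of the other groups. KO gel (mean 1091 ± 62.0, n = 3) and WT media (1051 ± 246, n = 3) overlapped. By gene, the lowest group mean was in WT gel for 9 of 10 genes, Gbp9 being the exception, and the highest was in KO gel for 8 of 10 and in WT media for Irgm2 and Igtp. The KO gel mean lay within the range of the WT media libraries for 8 of 10. These counts are descriptive, and no share over all tested genes is set beside them. In bulk RNA, fewer cells that express a gene and less RNA per cell cannot be told apart.

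**Figure D1:**
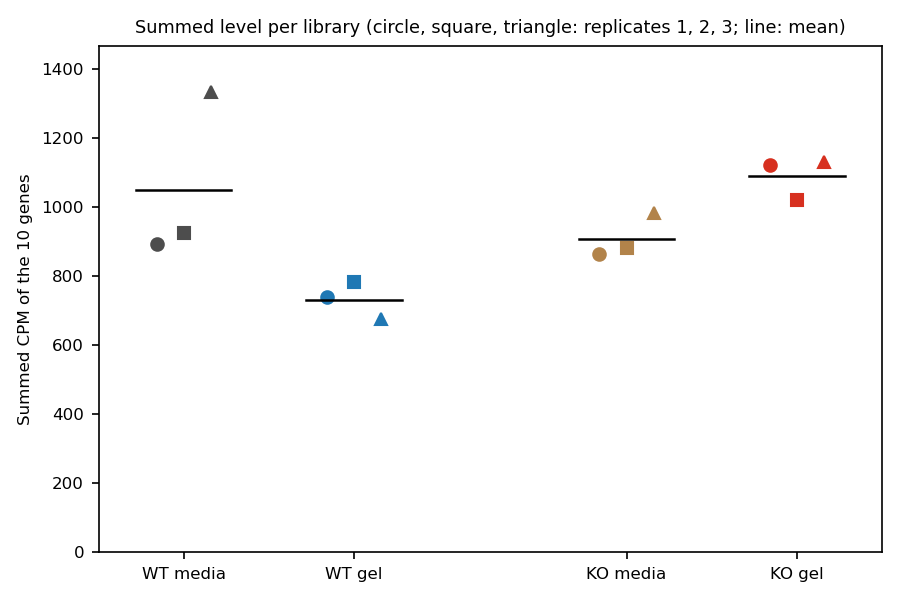
Summed level of the 10 GTPase genes in CPM (vertical axis, from 0) in each library of the 4 groups (horizontal axis), with replicates as symbols and the mean as a line. WT gel libraries lie at 676 to 783, KO gel libraries at 1020.0 to 1131, and WT media replicate 3 stands at 1335.

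The first comparison asks how the KO cells differed from WT cells when both were in the collagen gel. All 6 guanylate-binding protein genes and Irgm1 were higher in KO gel than in WT gel, by 1.26-fold to 1.79-fold, which was 7 of the 10 genes, while 7.12% of all tested genes were higher and 7.71% lower by the same rule (edgeR quasi-likelihood test, Benjamini-Hochberg adjusted p under 0.05 over 19010 genes). None was lower. In all 10 genes every KO gel library was above every WT gel library, as held for 18.3% of tested genes, and all 10 had an unadjusted p under 0.05 in this direction, against 14.8% of tested genes. The median log2 fold change was 0.61 over the 10 genes, -0.00032 over all tested genes and -0.07 over the 9919 genes whose log2 CPM averaged 3 or more.

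Among the guanylate-binding proteins, Gbp2, a lipid-anchored coat protein, read 110.1, 121 and 113 CPM in WT gel and 179.7, 163 and 191 in KO gel. The groups did not overlap, and the log2 fold change was 0.63 (SE 0.13, edgeR adjusted p = 0.00446). Gbp5, also lipid-anchored and studied for its part in inflammasome assembly, was the gene with the lowest level per kb, at 22.1, 23.3 and 20.6 CPM in WT gel against 34.2, 33.0 and 33.5 in KO gel. Its log2 fold change was 0.61 (SE 0.09, edgeR adjusted p = 0.000506), and the 3 KO gel libraries lay closer together than in any other group. Gbp7, which has been linked to the assembly of the NADPH oxidase, stood at 59.8, 62.5 and 55.8 CPM in WT gel and at 88.6, 90.9 and 91.6 in KO gel. Here too the separation was wide beside the spread, with a log2 fold change of 0.61 (SE 0.09, edgeR adjusted p = 0.000546).

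Gbp3 had the smallest difference of the family, from 51.7, 50.7 and 50.1 CPM in WT gel to 66.2, 60.5 and 65.2 in KO gel. Its libraries were so close within each group that the log2 fold change of 0.33 (SE 0.07, edgeR adjusted p = 0.00459) still passed. Gbp9, a family member recruited to the vacuoles of intracellular parasites, went from 46.3, 61.9 and 61.3 CPM to 98.5, 82.2 and 88.9 (log2 fold change 0.67, SE 0.15, edgeR adjusted p = 0.00919). WT gel replicate 1 was the low library for Gbp9 and KO gel replicate 1 the high one. Gbp6 read 28.6, 37.2 and 27.0 CPM in WT gel and 57.4, 52.8 and 55.3 in KO gel (log2 fold change 0.84, SE 0.20, edgeR adjusted p = 0.0143). Gbp6 was called in 9 of the 12 fits that each left out 1 library. It missed without WT gel replicate 1 (edgeR adjusted p = 0.0733), WT gel replicate 3 (0.0633) or KO gel replicate 1 (0.0507), with log2 fold changes of 0.78, 0.74 and 0.80, and its reads are the most shared with other genes.

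Of the immunity-related GTPases, Irgm1, a regulator also tied to autophagy and to the survival of activated T cells, passed the test. It read 102, 105 and 87.1 CPM in WT gel and 149, 139 and 151 in KO gel (log2 fold change 0.58, SE 0.12, edgeR adjusted p = 0.00498). The other regulators missed the threshold narrowly. Irgm2 went from 75.2, 73.8 and 66.3 CPM to 100.3, 87.4 and 99.3 (log2 fold change 0.41, SE 0.14, edgeR adjusted p = 0.0630), and Igtp from 196, 189.7 and 149 CPM to 246, 233 and 257 (0.46, SE 0.15, edgeR adjusted p = 0.0522). In both genes the lowest KO gel library was still above the highest WT gel library. DESeq2 called all 10 genes in this comparison, against 7.82% of tested genes called higher by it.

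The effector Iigp1 (chr18:60376027-60392634 in GENCODE M21) read 47.4, 58.1 and 44.8 CPM in WT gel and 103, 77.8 and 99.0 in KO gel. Its log2 fold change of 0.90 was the largest of the 10 in this comparison but its error was also the largest (SE 0.28, edgeR adjusted p = 0.0573). It was called in 2 of the 12 fits that each left out 1 library, without WT media replicate 3 (edgeR adjusted p = 0.00204) and without WT media replicate 1 (0.0283), and over the 12 fits the adjusted p reached 0.181.

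**Figure D2:**
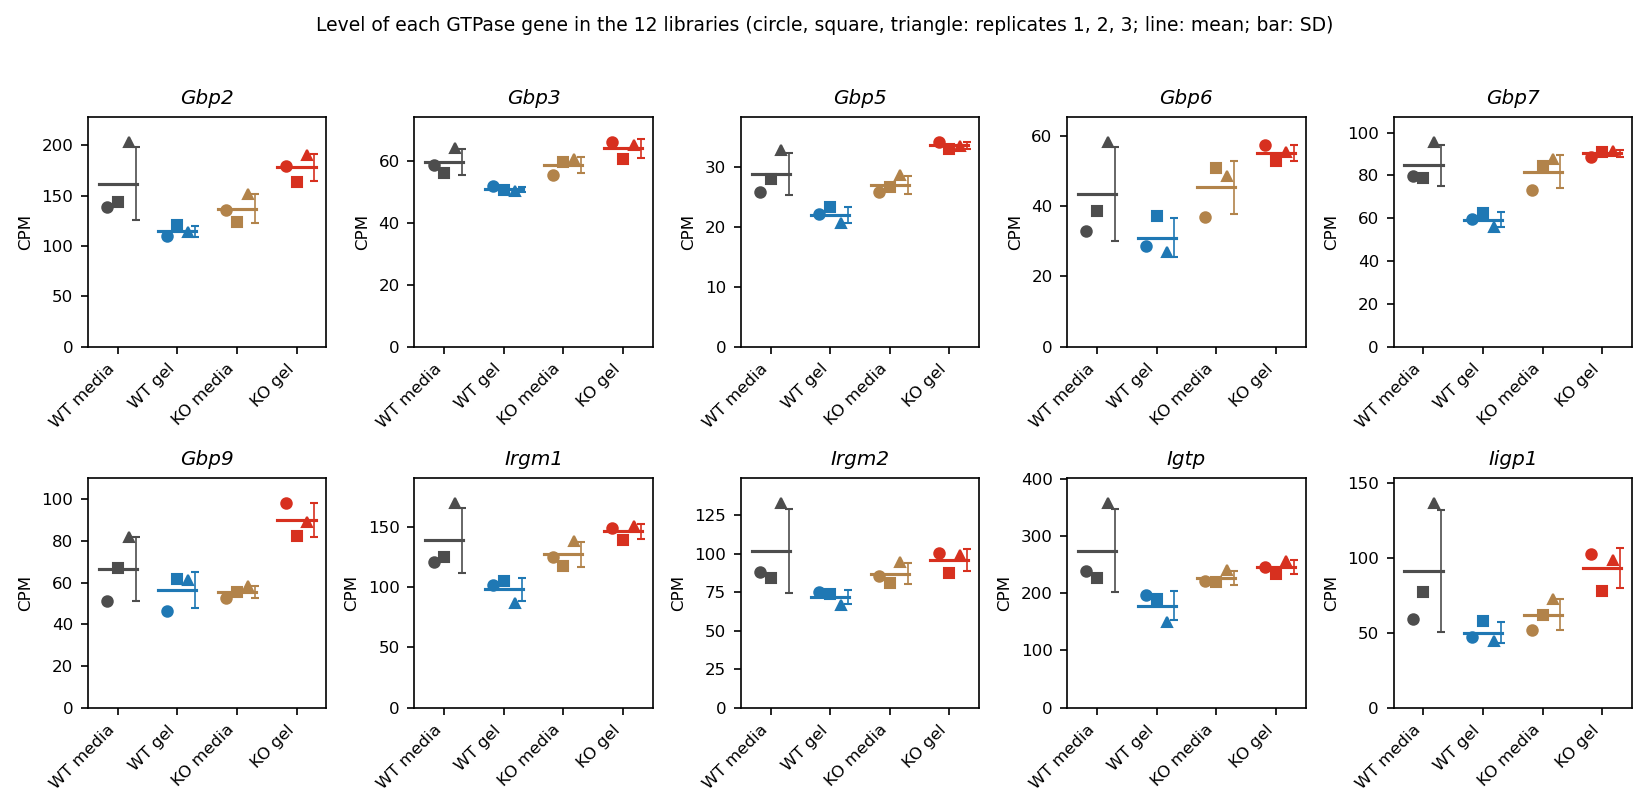
CPM of each GTPase gene (1 panel a gene, vertical axis from 0) in the 3 libraries of each group, with replicates as symbols, means as lines and SD as bars. In every panel the 3 KO gel libraries lie above the 3 WT gel libraries, and WT media replicate 3 is the highest of its group.

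In media, without the gel, no member passed the test between genotypes. None of the 10 was called, none had an unadjusted p under 0.05, and the libraries of the 2 groups overlapped in all 10 genes (edgeR quasi-likelihood test). DESeq2 and limma-voom also called 0. Of all tested genes, 0.0263% were higher and 0.163% lower in KO media, so few genes passed in this comparison at all. The log2 fold changes ran from -0.55 in Iigp1 (SE 0.27) to 0.06 in Gbp6 (SE 0.19), with a median of -0.18. Without WT media replicate 3 the median was 0.01, so the mostly negative values rest on that library. Gbp7, for example, read 79.6, 78.6 and 95.9 CPM in WT media against 73.0, 84.6 and 87.6 in KO media, and Gbp3 read 58.6, 55.9 and 64.1 against 55.5, 59.5 and 60.5. These values do not show that the genotypes were alike in media, only that a difference was not detected with 3 libraries a group.

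The gel response of WT cells was examined next. All 10 genes had a negative log2 fold change in WT gel against WT media, from -0.23 in Gbp3 to -0.87 in Iigp1, with a median of -0.50, but none passed the adjusted threshold in edgeR, where 0.0316% of tested genes were higher and 0.00526% lower. The smallest edgeR adjusted p was 0.0680, for Gbp7 (log2 fold change -0.51, SE 0.09). At an unadjusted p under 0.05, 9 of 10 were lower (all but Gbp9), against 2.64% of tested genes, and in 8 of 10 every WT gel library lay below every WT media library, against 4.53%. Gbp6 and Gbp9 overlapped. limma-voom called 0 of the 10, and DESeq2 called 4 lower, Gbp5, Gbp7, Irgm1 and Igtp, against 0.132% of tested genes.

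Over genes whose log2 CPM averaged 3 or more, WT libraries that share a number had correlated deviations, with r of 0.24 to 0.80. The lowest r was for number 2. These libraries were therefore also compared as pairs, although the labels do not state such pairing. Each of the 30 pairs (10 genes, 3 numbers) was lower in gel, but only those of Gbp6 and Gbp9 could have shown otherwise. In the other genes every WT gel library was already below every WT media library. The genes were also correlated, so the 30 pairs are not independent. With the number as a block within genotype, edgeR called 2 genes lower, Gbp7 (adjusted p = 0.00677) and Gbp5 (adjusted p = 0.0254), against 0.395% of tested genes. The size of the difference depended on WT media replicate 3, the highest of its group in 10 of 10 genes. Igtp read 239, 226 and 358 CPM in WT media, Irgm1 read 121, 125 and 170.4, and Iigp1 read 59.4, 77.2 and 137. Without that library the median log2 fold change of the 10 genes moved from -0.50 to -0.29, that of Igtp from -0.62 to -0.38 and that of Iigp1 from -0.87 to -0.45. The sign stayed negative in all 10 genes, down to -0.06 in Gbp9. Leaving out WT media replicate 1 or KO media replicate 1 instead gave 1 call, Gbp7 (edgeR adjusted p = 0.0269 and 0.0492).

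In KO cells the gel went with higher values. Gbp2, Gbp5 and Gbp9 rose in KO gel against KO media, 3 of the 10 genes, while 11.1% of all tested genes were higher and 9.74% lower in this comparison, which is the one with the most calls of the 5. The same 3 genes had an unadjusted p under 0.05, against 18.8% of tested genes, so the share of members called was close to a broad background. All 10 log2 fold changes were positive, from 0.11 in Igtp to 0.69 in Gbp9, with a median of 0.24 against -0.01 over all tested genes and -0.08 over genes whose log2 CPM averaged 3 or more. With no filter on low counts the medians of the 10 genes and of all genes were close, at 0.20 and 0.19. In 7 of 10 every KO gel library was above every KO media library, against 23.5% of tested genes, and Gbp3, Irgm2 and Igtp overlapped.

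Gbp9 changed most, from 52.7, 55.5 and 58.6 CPM in KO media to 98.5, 82.2 and 88.9 in KO gel (log2 fold change 0.69, SE 0.15, edgeR adjusted p = 0.00604). It was the only one of the 3 called in all 12 fits that each left out a library. Gbp5 read 25.7, 26.5 and 28.6 CPM in KO media (log2 fold change 0.32, SE 0.09, edgeR adjusted p = 0.0187), and Gbp2 read 135, 124 and 152 (0.38, SE 0.12, edgeR adjusted p = 0.0464). Gbp5 was called in 8 and Gbp2 in 4 of those 12 fits. Without KO media replicate 1 or 2, or without KO gel replicate 1 or 3, Gbp9 alone was called. Among the regulators, Irgm1 (125, 118 and 139 CPM in KO media), Irgm2 (85.5, 81.0 and 94.4) and Igtp (222, 219 and 241) had log2 fold changes of 0.20, 0.14 and 0.11 and were not called. Iigp1 read 51.9, 62.2 and 72.6 CPM in KO media and had a log2 fold change of 0.58 (SE 0.28, edgeR adjusted p = 0.154).

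**Figure D3:**
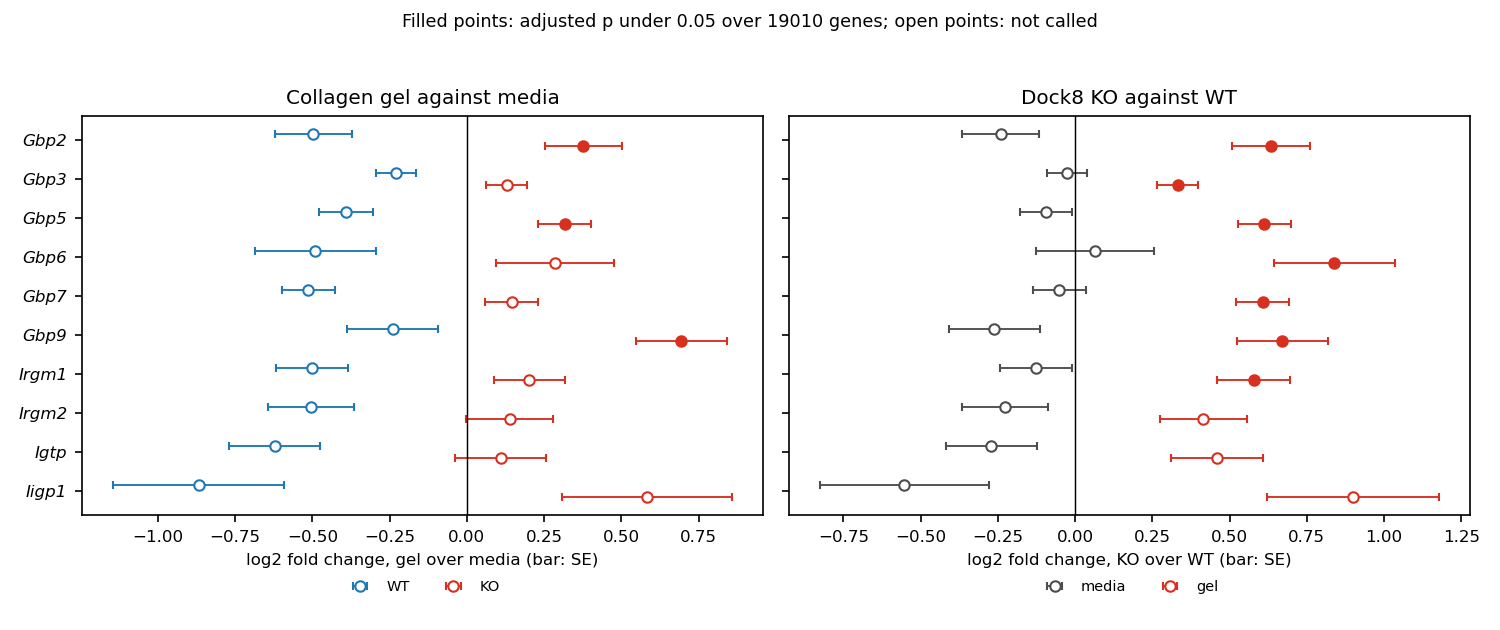
Log2 fold change (horizontal axis, bars give the SE) of each GTPase gene for gel over media in WT and in KO (left) and for KO over WT in media and in gel (right), with filled points for adjusted p under 0.05. In the left panel every WT point is negative and every KO point positive, and in the right panel filled points appear only for gel, in 7 genes.

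Whether the 2 genotypes differed in their gel response was tested with the interaction term of the same fit. The response was higher in KO than in WT cells for Gbp2, Gbp5, Gbp7, Gbp9 and Irgm1, 5 of the 10 genes, against 1.89% of tested genes higher and 1.45% lower. Their interaction values, the KO response minus the WT response on the log2 scale, were 0.87 for Gbp2 (SE 0.18, edgeR adjusted p = 0.0201), 0.71 for Gbp5 (SE 0.12, 0.0106), 0.66 for Gbp7 (SE 0.12, 0.0136), 0.93 for Gbp9 (SE 0.21, 0.0310) and 0.70 for Irgm1 (SE 0.16, 0.0336). The other 5 values were also positive but not called: 0.36 in Gbp3 (edgeR adjusted p = 0.0513), 0.78 in Gbp6 (0.146), 0.64 in Irgm2 (0.0938), 0.73 in Igtp (0.0744) and 1.45 in Iigp1 (0.0800). The median over the 10 genes was 0.72, against 0.00 over all tested genes. The make-up of the value differed by gene, which was not tested: in Gbp9 the KO response (0.69) was larger in size than the WT response (-0.24), and in Gbp7 the WT response (-0.51) was larger than that of KO (0.15).

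Gbp5 and Gbp7 were called in all 12 fits that each left out a library, Gbp2 in 9, Gbp9 in 5 and Irgm1 in 2. The count of 5 became 9 without WT media replicate 1, 3 without WT media replicate 2, KO media replicate 2 or 3, or WT gel replicate 1, and 2 without KO media replicate 1 or KO gel replicate 1 or 3. Genes called in all were 636 in the main fit and 2011 without WT media replicate 1. They were 185 to 490 in the fits with 3 or 2 members called. Without WT gel replicate 2 and KO media replicate 3 together, the libraries rich in ribosomal RNA-like counts, none of the 10 was called and 30 genes were called in all, while the median of the 10 values was 0.81. Without WT media replicate 3, the highest of its group in 10 of 10 genes, the median fell from 0.72 to 0.54. Gbp2 then fell from 0.87 to 0.67 and Iigp1 from 1.45 to 1.03, and 6 of the 10 genes were called, with 347 genes called in all. With the number as a block within genotype 5 of the 10 genes were called, Gbp3 entering (edgeR adjusted p = 0.00618) and Irgm1 dropping out (0.108). That fit called 3431 genes in all, against 636 in the main fit.

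Across the 12 libraries the levels of the 10 genes were correlated. Over the 45 pairs of the 10 genes, Pearson's r of log2 CPM had a median of 0.86, with 0.47 as the lowest (Gbp9 and Igtp) and 0.97 as the highest (Irgm2 and Igtp), and 40 pairs were over 0.7. These r values describe 12 libraries that share 4 groups and their depth. Within groups 1 library often set the extreme for many genes at once: WT media replicate 3 was highest in 10 of 10, KO media replicate 3 highest in 9, WT gel replicate 3 lowest in 8 and KO gel replicate 2 lowest in 9. The 9909 other genes were ranked by likeness to the mean of the 10, and predicted gene models and pseudogenes (Gm number, Rik or -ps names) were then left out. The 5 highest of the rest were Tgtp2 (Pearson's r 0.98), Tgtp1 (0.98), Gbp10 (0.96), Gbp4 (0.96) and Gvin1 (0.95), all from GTPase families as well. Tgtp2 averaged 215 CPM in media and 144 in gel for WT cells, and 179.8 and 219 for KO cells. Tgtp1 and Tgtp2 are near copies of each other, so their counts are uncertain.

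Relatives of these genes were also called higher in KO gel than in WT gel, some of them and not others, where 7.12% of all tested genes were called higher and 7.71% lower. Of 5 other tested guanylate-binding protein genes, Gbp4, Gbp8 and Gbp10 were higher in KO gel than in WT gel and none was lower. Gbp4 read 101 to 119 CPM in WT gel and 175 to 189 in KO gel, a log2 fold change of 0.72 (SE 0.16, edgeR adjusted p = 0.0112). Gbp10 had 0.91 and Gbp8 0.64, while Gbp11 (0.57, edgeR adjusted p = 0.0508) was not called. Of 13 other immunity-related GTPase genes, 6 were higher, among them Tgtp1 (0.66), Tgtp2 (0.60) and Gm12185 (0.65), and 7 were not called, such as Gm5431 (0.27), with a median of 0.27 over the 13. Gm4951 (1.46) and F830016B08Rik (1.27) were higher at low levels, 4.24 to 6.11 and 1.42 to 2.14 CPM in KO gel. All 5 of the very large inducible GTPase and Mx genes were higher, with Mx1, an antiviral GTPase known as a target of type I interferon, at 7.33 to 9.20 CPM in WT gel and 13.2 to 18.3 in KO gel (log2 fold change 0.93). Mx2 had 1.13, Gvin1 0.49, Gm1966 0.50 and Gm4070 0.47.

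The upstream pathway was mixed. Of 15 tested genes for the ligand, receptor and signalling of interferon gamma, 2 were higher in KO gel than in WT gel and 1 was lower, against 7.12% and 7.71% of all tested genes, with a median log2 fold change of -0.03. Ifng, the ligand, was low throughout, with 0.756 to 1.33 CPM in WT gel and 2.06 to 2.72 in KO gel. Its log2 fold change was 1.29 (SE 0.22, edgeR adjusted p = 0.00171), and in KO gel against KO media 0.62 (SE 0.20, 0.0410). The receptor genes Ifngr1 (-0.08) and Ifngr2 (-0.06) and the kinase genes Jak1 (0.02) and Jak2 (-0.09) were not called. Irf1, which binds the ISRE, had 0.19 and the inhibitor Socs1 0.08, and neither was called. Ciita, the activator of MHC class II genes, was higher by 2.26 at a low level of 1.21 to 1.75 CPM in KO gel, and Ptpn6, a phosphatase that restrains receptor signalling, was lower by 1.26-fold (log2 fold change -0.33). Ptpn2, another phosphatase of the pathway, had -0.14 and was lower in KO gel against KO media (-0.17).

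Other targets of interferon gamma were mixed. Of 20 tested, 3 were higher in KO gel than in WT gel, against 7.12% of all tested genes, Cxcl10 (1.61), Cd274 (0.73) and Upp1 (1.53), and 1 was lower, against 7.71%, Tap1 (-0.21), a peptide transporter for MHC class I loading. Cd274, which encodes the inhibitory ligand PD-L1, read 13.3 to 14.9 CPM in WT gel and 22.8 to 24.5 in KO gel, and Cxcl10, a chemokine, read 0.327 to 0.876 and 1.30 to 1.77. Psmb9, an immunoproteasome subunit, was lower in KO gel against KO media (-0.24), and Slfn1 was higher there (0.38). The median of the 20 genes in KO gel against WT gel was 0.06, against 0.61 for the 10 GTPases. Of 20 tested genes of type I interferon signalling and its targets 7 were higher and none lower, with a median of 0.18. Among them Ifit1, which binds viral RNA, read 1.13 to 1.52 CPM in WT gel and 3.97 to 4.66 in KO gel (log2 fold change 1.69), and Oasl2 (1.32), Ifit3 (1.09) and Rsad2 (0.77) were higher too.

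Genes that act with the GTPases mostly stayed below the threshold in KO gel against WT gel. Of all tested genes, 7.12% were called higher and 7.71% lower in that comparison. Of 14 tested genes for the ubiquitin-like conjugation that recruits the GTPases to vacuoles, Sqstm1, an autophagy adaptor (0.29), and Rabgap1l (0.31) were higher in KO gel than in WT gel, and Atg5 (-0.06) and Atg16l1 (0.16) were not called. Of 6 enzymes for the lipid anchor of the guanylate-binding proteins, Icmt, which methylates prenylated proteins, was lower (-0.26), and Zmpste24 (-0.11), Rce1 (-0.21) and Pggt1b (0.22) were not called. Of 9 inflammasome genes Aim2, a sensor of DNA in the cytosol, was higher (0.41), and Pycard (-0.28), Il18 (-0.45) and Gsdmd (-0.13) were not called. In media no gene of the 9 lists passed the adjusted threshold between genotypes, and none did in WT gel against WT media (edgeR). Without adjustment, at p under 0.05, 3 of 5 other guanylate-binding proteins and 7 of 13 other immunity-related GTPases were lower in WT gel. So were 2 of 5 very large GTPase and Mx genes and 4 of 15 interferon gamma signalling genes. The same held for 8 of 20 other interferon gamma targets and 7 of 20 type I genes, against 2.64% of all tested genes. In KO media against WT media, 4 of 15 signalling genes and 5 of 20 other targets were lower. Among type I genes 3 of 20 were lower and 1 higher. Lower, too, were 2 of 13 other immunity-related GTPases, against 861 of 19010 tested genes. Lists not named for a comparison had 0 lower.

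**Figure D4:**
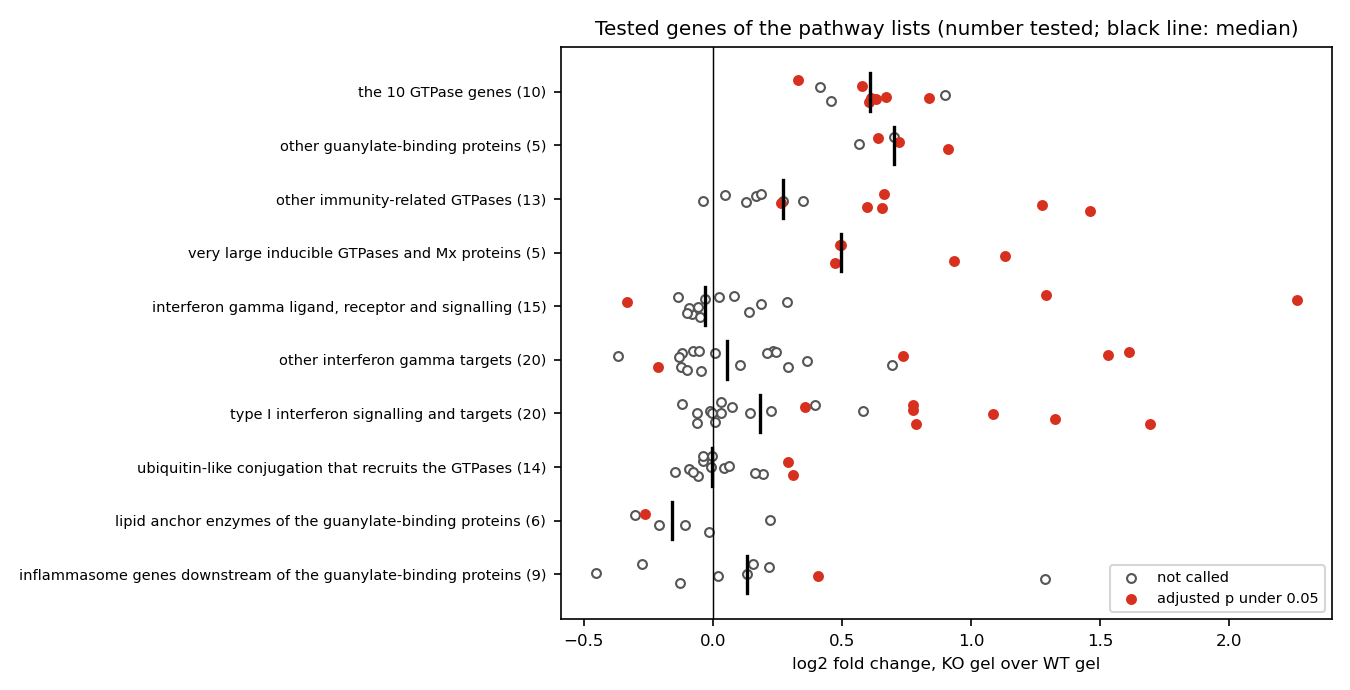
Log2 fold change of KO gel over WT gel (horizontal axis) for the 10 GTPase genes and the tested genes of 9 related lists (rows, number tested in brackets), with filled points for adjusted p under 0.05 and a black line for the median. The rows of GTPase families lie mostly to the right of 0, with medians of 0.61, 0.70, 0.27 and 0.50, and the row for interferon gamma signalling has a median of -0.03.

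Some other measures moved with the higher GTPase levels of KO gel. The larger number of detected genes in the KO gel libraries, given above, went with the comparisons of KO gel against both WT gel and KO media. The mitochondrial share was higher in every KO gel library than in every WT gel library and overlapped with KO media. The 8 T cell markers summed to 2969 to 3131 CPM in KO gel and 3261 to 3519 in WT gel, with no overlap, and to 3025 to 3412 in KO media. The part of these measures in the GTPase values was not tested. The summed level of 5 dendritic cell markers was 33.6 to 44.6 CPM in KO gel and 14.0 to 32.3 in WT gel. Nearly all of it was Itgax, and the sum was 35.3 to 45.9 CPM in KO media. In KO gel Flt3 was at most 0.324, Xcr1 at most 0.0997 and Siglech at most 0.0250 CPM. Zbtb46 read 2.27 to 2.53 CPM in KO gel and 0.443 to 0.716 in WT gel. The 6 macrophage and monocyte markers summed to 6.02 to 7.36 CPM in KO gel and 5.23 to 7.25 in WT gel, the 5 B cell markers to 11.5 to 11.7 and 12.1 to 14.6, with Pax5 at 0 in WT gel, and the 4 NK cell markers to 21.3 to 37.7 and 13.4 to 41.1. The 4 neutrophil and mast cell markers, of which S100a8 and S100a9 were at 0 in both, summed to 1.72 to 3.94 CPM in KO gel and 0.907 to 1.14 in WT gel. Markers of CD4 and regulatory T cells summed to 31.7 to 36.9 CPM in KO gel and 29.2 to 36.1 in WT gel, and 5 stromal and endothelial markers, mainly Pecam1, to 118 to 132 and 123 to 141. The part of these markers in the GTPase values was not tested.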

How the data were processed

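The authors deposited 1 table of raw gene counts (whole numbers, no normalization) for 12 libraries. FastQC, MultiQC, HISAT2, SAMtools, Picard and featureCounts, and the build GRCm38 (mm10), are named per the submitters' processing notes. Roles, settings, strand and annotation were not given in the sources used here. Per the labels' protocols, 150 ng of total RNA (PureLink) was depleted of ribosomal RNA (RiboCop) and made into libraries with KAPA HyperPrep.

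Groups came from the labelled genotype and treatment. The deposited counts were fitted with edgeR 4.0.16 (quasi-likelihood, robust, TMM scaling, filterByExpr by group) in 1 fit of 4 groups, with Benjamini-Hochberg adjustment over 19010 genes and a threshold of 0.05. SE was taken as the size of the log2 fold change over the root of the F statistic. The comparisons of KO gel with KO media and with WT gel share libraries. CPM is on a library total of 1000000 counts, per kb of GENCODE M21 exons where stated, and likeness and pair correlations used log2 CPM with a prior count of 2. Fits were tested on simulated data. DESeq2 1.42.0, limma-voom (3.58.1), other scalings and filters, replicate blocks and fits leaving out libraries were the alternatives. Tables and figures were made in Python 3.11.15 (pandas 2.3.3, biopython 1.88, matplotlib 3.10.9).

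The members, lists, markers and tests were chosen with earlier results of these data known. The rule for named genes took the 10 members, Ifng, Ifngr1, Ifngr2, Jak1, Jak2, Irf1 and Socs1, up to 4 genes a list by p in KO gel against KO media, the 5 genes most like the members, and Dock8. Predicted gene models and pseudogenes were left out of the genes named by likeness. Gm4070, Upp1 and Tap1 were named after their values were seen. Of 119 list entries, 117 were in the table, and 1 further gene is not reported here. Replicates of a group differed by more than sampling noise, with at least 13.0 chi-square per degree of freedom. As a check of pairing, same-number libraries had correlated deviations of 0.24 to 0.80 in WT media and WT gel, and of 0.17 to 0.38 in WT media and KO media, each over 0.1. WT gel and KO media also exceeded 0.1 (0.17 to 0.27), although libraries of different genotype cannot come from 1 mouse. KO media and KO gel (-0.04 to 0.20) and WT gel and KO gel (-0.45 to 0.15) did not meet that level. Neither did WT media and KO gel (-0.38 to 0.25). Some libraries of unlike number were correlated, such as WT gel replicate 1 and KO gel replicate 2 (0.51). The level of 0.1 therefore does not by itself mark a shared mouse. The pairing used for the blocks comes from the data, not the labels.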

Additional observations from a re-analysis of the deposited data

Results flagged for a closer look

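The gel response differed between genotypes, by the interaction term of the edgeR quasi-likelihood fit adjusted over all genes, in 5 of the 10 GTPase genes. All 5 were higher, against 1.89% of tested genes higher and 1.45% lower. The KO response minus the WT response on the log2 scale was 0.87 for Gbp2 (adjusted p = 0.0201), 0.71 for Gbp5 (0.0106), 0.66 for Gbp7 (0.0136), 0.93 for Gbp9 (0.0310) and 0.70 for Irgm1 (0.0336). In each gene the WT value was negative and the KO value positive, and of these 10 responses the KO responses of Gbp2, Gbp5 and Gbp9 passed the threshold on their own. Gbp5 and Gbp7 kept their interaction call in all 12 fits that each left out a library, Gbp2 in 9, Gbp9 in 5 and Irgm1 in 2. Without the 2 libraries rich in ribosomal RNA-like counts, 0 of the 10 genes were called, and 30 genes in all.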

How the results depend on the processing

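No value turned against a call. Over all alternatives every log2 fold change kept its sign in WT gel against WT media (220 values, all negative), KO gel against KO media (220, all positive), KO gel against WT gel (210, all positive) and the interaction (210, all positive). In KO media against WT media, where nothing was called, 185 were negative and 25 positive. In KO gel against WT gel 7 members were called and every alternative gave 6 to 10. Genes called in all were 2819 in the main fit and 1444 to 4156 in the alternatives. Members called in WT gel against WT media went from 0 to 1 with total counts as scaling, 8 with no filter, 4 with DESeq2, 1 with the replicate block by number and 2 with the replicate block by genotype and number, and 0 to 1 with 1 library left out. Genes called in all were 7 in the main fit and 15, 195, 50, 10 and 171 in the named alternatives, in that order. In KO gel against KO media 3 became 5 with no filter and 5 when only the 2 groups compared were fitted, and 1 to 4 with 1 library left out. There 3962 genes called in all became 6063 with no filter and 6159 with only the 2 groups. In KO media against WT media 0 became 1 (Iigp1) with no filter, and 0 with 1 library left out. With no filter 435 genes were called in all in that comparison, against 36 in the main fit. The interaction went from 5 to 8 with total counts, 9 with no filter, 9 with DESeq2, 0 without the 2 libraries rich in ribosomal RNA-like counts, and 2 to 9 with 1 library left out. Genes called in all were 636 in the main fit, 482 with total counts, 1768 with no filter and 1149 with DESeq2. The cause of these changes was not tested. Total counts as scaling moved the median log2 fold change of all genes to 0.10 in KO gel against WT gel and to 0.12 in the interaction. Relative to that shift the members' medians were 0.61 and 0.73, close to 0.61 and 0.72 with TMM. With no filter, which adds genes of very low counts, the median of all genes was 0.19 in KO gel against KO media, 0.16 in KO gel against WT gel and 0.21 in the interaction. The members' medians exceeded it by 0.0064, 0.42 and 0.47, against 0.25, 0.61 and 0.72 with the filter. Beyond the blocked calls given in the report, the replicate block by number added Gbp7 in WT gel against WT media (edgeR adjusted p = 0.0406), Irgm2 in KO gel against WT gel (0.0415) and Gbp3 in the interaction (0.0377), and the blocks changed no other call. With 3 libraries a group, and reads of Gbp6 largely shared with other genes, small differences in media may go undetected.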
